A study of Mus musculus with 8 samples.

Results

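The Bcl2 family sets the threshold at which a cell dies by the mitochondrial route, and 10 of its genes are described here in mouse pancreatic islets with and without Tcf7. The genes were chosen by symbol, 10 of the 22632 genes with values: the survival genes Bcl2, Bcl2l1 and Mcl1, the effector genes Bax and Bak1, and the BH3-only genes Bid, Bcl2l11, Bbc3, Bad and Pmaip1. Total RNA was sequenced in 8 libraries of islets from C57BL/6 mice, 2 in each of 4 groups. The groups were Tcf7-/- mice aged 20 weeks on a diet with 45% fat, their Tcf7+/+ littermates of that age and diet, Tcf7-/- mice aged 8 weeks on a diet with 10% fat, and Tcf7+/+ littermates of that age and diet. Age and diet changed together, so their parts cannot be told apart, and the pair of them is called the setting below. Tcf7 encodes TCF-1, a transcription factor of the Wnt pathway. The labels give neither the deleted part of the gene nor the age at which the diets began, and do not say whether libraries came from separate animals, so that the spread behind each p-value may be technical.

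Survival proteins of this family bind and hold back the effectors, which otherwise open pores in the outer mitochondrial membrane, release cytochrome c and start the caspases. BH3-only proteins carry the signal: they bind the survival proteins, and some of them also activate the effectors directly. In beta cells the balance between these proteins is known to decide how cells respond to cytokines, endoplasmic reticulum stress and excess nutrients. FOXO factors are known to induce Bcl2l11 and Bbc3 in several tissues, and TCF factors act at Wnt target genes through a core motif of their own.

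Promoters of 5 of these genes are shown because their genes were the ones whose values separated the 20-week from the 8-week libraries (Bcl2, Bid, Bbc3 and Bax) or because they hold a forkhead motif (Bcl2l11 and Bbc3). Each is the 250 bases before a RefSeq transcription start on GRCm38.p6, written along the gene's own strand. They lie at chr1:106714291-106714540 (Bcl2, minus strand), chr6:120916825-120917074 (Bid, minus), chr7:16310011-16310260 (the second of 3 Bbc3 starts, plus), chr2:128125788-128126037 (the first of 2 Bcl2l11 starts, plus) and chr7:45466899-45467148 (Bax, minus). Capitals mark the TCF/LEF motifs ATCAAAG and TTCAAAG, the forkhead motif GTAAACA and the GC box GGGGCGG, each searched on both strands.
Bcl2: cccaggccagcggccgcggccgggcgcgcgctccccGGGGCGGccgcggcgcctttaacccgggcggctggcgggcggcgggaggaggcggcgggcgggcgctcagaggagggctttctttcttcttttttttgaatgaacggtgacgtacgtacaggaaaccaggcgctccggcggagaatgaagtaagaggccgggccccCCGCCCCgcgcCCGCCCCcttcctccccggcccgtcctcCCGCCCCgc
Bid: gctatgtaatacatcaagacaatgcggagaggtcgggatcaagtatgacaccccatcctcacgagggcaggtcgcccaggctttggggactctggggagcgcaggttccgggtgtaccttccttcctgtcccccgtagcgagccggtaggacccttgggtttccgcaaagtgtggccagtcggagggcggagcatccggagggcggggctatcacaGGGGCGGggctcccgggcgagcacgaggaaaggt
Bbc3: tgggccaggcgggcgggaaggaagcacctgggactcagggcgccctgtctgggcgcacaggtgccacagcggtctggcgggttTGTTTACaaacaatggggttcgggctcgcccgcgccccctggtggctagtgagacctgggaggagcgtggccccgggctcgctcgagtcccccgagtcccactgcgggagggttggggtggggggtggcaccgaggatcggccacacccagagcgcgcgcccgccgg
Bcl2l11: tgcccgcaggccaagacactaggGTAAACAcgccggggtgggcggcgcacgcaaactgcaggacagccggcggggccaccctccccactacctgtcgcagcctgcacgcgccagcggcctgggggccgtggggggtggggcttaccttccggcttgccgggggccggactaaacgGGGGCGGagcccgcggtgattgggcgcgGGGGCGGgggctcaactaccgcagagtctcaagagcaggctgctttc
Bax: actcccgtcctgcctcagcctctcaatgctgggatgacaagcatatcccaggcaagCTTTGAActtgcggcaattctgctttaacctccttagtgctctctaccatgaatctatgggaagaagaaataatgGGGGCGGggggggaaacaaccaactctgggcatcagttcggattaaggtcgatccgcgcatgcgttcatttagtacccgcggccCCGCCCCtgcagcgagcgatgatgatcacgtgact
Of 15 promoters found for 9 of the genes, 1 held TTCAAAG (Bax, as CTTTGAA, with its first base at -194 from the start), against 4.46% of all 32851 promoters. None held ATCAAAG, which 3.21% of all promoters hold. The forkhead motif stood in 2, at -227 from the Bcl2l11 start and, as TGTTTAC, at -167 from the Bbc3 start, against 3.17% of all. GC boxes were in 9 of 15, among them 4 matches in Bcl2, against 21.0% of all. These are matches of letters and no measure of binding.

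Library totals, recovered from the deposited RPM values (reads scaled by the library total), were 58.7 to 191 M reads, of which the listed genes took 55.7% to 61.2% at 20 weeks and 41.6% to 51.0% at 8 weeks. Summed islet endocrine markers stood at 52361 and 65074 RPM in Tcf7-/- and 46003 and 48668.5 RPM in wild type at 20 weeks. At 8 weeks these sums were 58516.5 and 68250 RPM in Tcf7-/- and 67086 and 64723 RPM in wild type. Acinar markers of digestive enzyme cells summed to 8101 and 9469 RPM in Tcf7-/- and 9220 and 25943 RPM in wild type at 20 weeks. Their 8-week sums were 21897 and 11093 RPM in Tcf7-/- and 2747 and 7896 RPM in wild type. Tcf7 itself had 4.56 and 2.56 RPM in the 20-week libraries labelled Tcf7-/- against 1.58 and 0.991 RPM in wild type. At 8 weeks it had 0.512 and 0.519 RPM in Tcf7-/- against 0.277 and 0.381 RPM in wild type. Reads summed over all of Tcf7 cannot check a deletion of unknown extent, and genotype directions below rest on the labels.

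Every one of the 10 genes had reads in all 8 libraries, at least 30 of them (Pmaip1 in the second wild-type library at 20 weeks), and 9 passed the filter of at least 1 RPM in at least 2 libraries. Pmaip1 (ENSMUSG00000024521), which encodes the BH3-only protein NOXA, did not pass and entered no main test. Per kb of exon, Mcl1 had the highest mean level over the 8 libraries at 14.0 RPM per kb, followed by Bcl2l1 at 8.03 and Bax at 4.72 RPM per kb. Bad stood at 2.59, Bbc3 at 2.38, Bcl2 at 1.799, Bcl2l11 at 1.72, Bak1 at 1.45, Bid at 0.818 and Pmaip1 at 0.274 RPM per kb. Mcl1 exceeded Bcl2l1 in every library, and Bcl2l1 exceeded Bax in every library but the first Tcf7-/- library at 8 weeks (4.52 against 4.89 RPM per kb). Between neighbours in this order the ranges over the 8 libraries overlapped, except for Bax (3.81 to 6.09) and Bad (2.18 to 3.28). In bulk tissue fewer cells of a type and less RNA per cell cannot be told apart, and these levels are averages over all cells of the preparation.

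**Figure D1:**
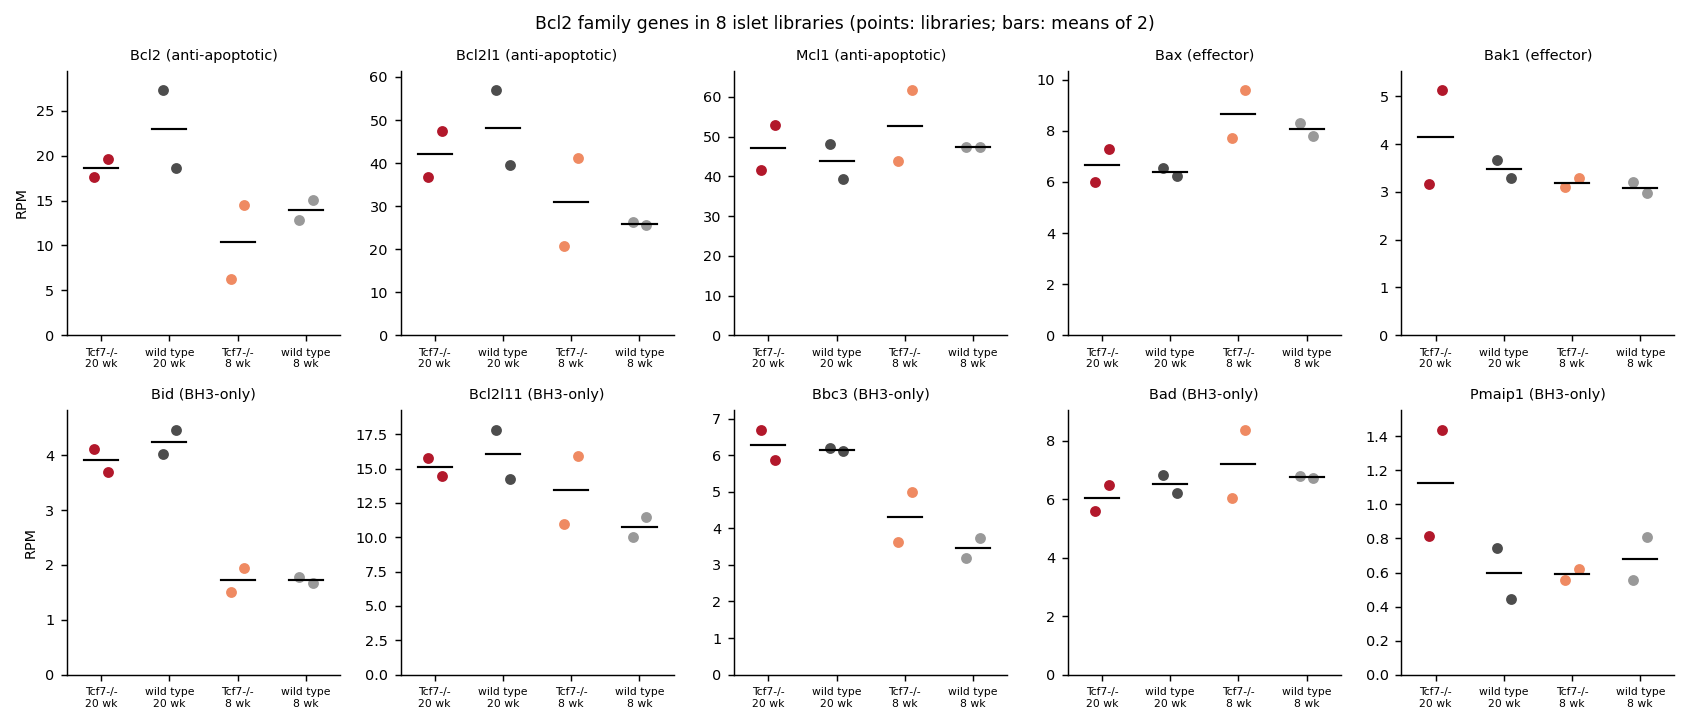
RPM of the 10 genes (vertical axes, each starting at 0) in the 8 libraries, by group on the horizontal axes; points are libraries and bars are means of 2. Bcl2, Bid and Bbc3 are above all 8-week values in every 20-week library, Bax is below them, and no panel but that of Pmaip1 separates the genotypes within a setting. Of all genes tested, 30.4% are above and 8.19% below in the same way between settings.

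The genotype comparison asked whether loss of Tcf7 goes with another level of the survival and death genes in islets. No tested gene of the family was called at an adjusted p below 0.05: 0 of 9 at 20 weeks, where 0.045% of all 13347 genes tested were called by limma, and 0 of 9 at 8 weeks, where 0.21% were. Averaged over both settings the count was 0 of 9 (0.105% of all genes), and 0 of 9 for the difference of the genotype effect between settings (0.0674%). In the main fit, on the deposited scale, none of these 9 genes reached an unadjusted limma p of 0.05 in any of the 4 contrasts. At 8 weeks Bcl2l11 did so with edgeR on the recovered reads (unadjusted p = 0.019), with median-of-ratios scaling (limma unadjusted p = 0.025) and once a trend with gene span, described further on, was removed (0.022). Bcl2 did so at 8 weeks and on average with median-of-ratios scaling (limma unadjusted p = 0.048 and 0.041) and with that trend removed (0.041 and 0.022). With a filter at 5 RPM Bcl2 did so on average (limma unadjusted p = 0.040). None of these passed adjustment, and edgeR on the recovered reads also called 0 of the 9 (0.0% of all genes at 20 weeks, 0.18% at 8 weeks, 0.015% on average and 0.0225% for the difference between settings).

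Bcl2 (ENSMUSG00000057329, chromosome 1), the founding survival gene, had the largest genotype estimate. It stood at 17.6 and 19.7 RPM in Tcf7-/- against 27.3 and 18.6 RPM in wild type at 20 weeks. The 8-week values were 6.26 and 14.5 RPM in Tcf7-/- against 12.8 and 15.1 RPM in wild type. The genotypes overlapped in both settings, and 1 library, the first Tcf7-/- one at 8 weeks, was far below the other 7. Fold changes are on the log2(RPM + 1) scale, tested with limma: that of Bcl2 was -0.26 ± 0.28 (SE) at 20 weeks (95% interval -0.86 to 0.33; limma adjusted p = 1) and -0.49 ± 0.28 at 8 weeks (-1.09 to 0.11; limma adjusted p = 1). Without the low library the 8-week estimate was 0.05. With that library alone, leaving out its partner, it was -1.04 and passed (limma adjusted p = 0.028), and the mean over both settings passed too (-0.65, limma adjusted p = 0.0498). The same library had the lowest share of its reads in listed genes, 41.6%. The first wild-type library at 8 weeks was close to it, at 42.1%, with Bcl2 at 12.8 RPM. The low library also had the most acinar marker RNA at 8 weeks, where the sums were 21897 and 11093 RPM in Tcf7-/- against 2747 and 7896 RPM in wild type. At 20 weeks the second wild-type library had more, 25943 RPM, with Bcl2 at 18.6 RPM. The part of acinar cells in the low Bcl2 value was not tested.

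Beside these 8-week values, summed lymphocyte markers were 0.476 and 0.702 RPM in Tcf7-/- and 9.53 and 6.08 RPM in wild type, and macrophage and pan-leukocyte markers 7.07 and 9.94 RPM against 21.4 and 26.5 RPM. At 20 weeks the lymphocyte sums overlapped, at 0.613 and 0.879 RPM in Tcf7-/- against 1.05 and 0.562 RPM in wild type. All 3 tested lymphocyte markers of 8 in the list (Cd79b, Ms4a1 and Pax5) were lower in Tcf7-/- at 8 weeks, and 2 of 5 tested leukocyte markers (Ptprc and Lyz2), while no marker of either list was at 0 in all libraries. With median-of-ratios scaling 1 lymphocyte and 1 leukocyte marker were called lower, and with the span trend removed 0 of either list. Bcl2 is known to be expressed in lymphocytes, and the part of these cells in its 8-week values was not tested.

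The other survival genes moved less with genotype. Bcl2l1 (ENSMUSG00000007659, chromosome 2), the gene of BCL-XL, had a log2 fold change of -0.18 ± 0.28 at 20 weeks (-0.76 to 0.41) and 0.17 ± 0.28 at 8 weeks (-0.42 to 0.75). Mcl1 (ENSMUSG00000038612, chromosome 3), a survival gene whose protein turns over fast, was at 0.11 ± 0.24 at 20 weeks (-0.39 to 0.60) and 0.13 ± 0.24 at 8 weeks (-0.36 to 0.63). The wild-type libraries at 8 weeks agreed closely for Mcl1, with 47.3 and 47.4 RPM, while the Tcf7-/- libraries lay on either side of them at 43.8 and 61.7 RPM.

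Effector and BH3-only genes gave estimates between -0.10 and 0.28. At 8 weeks the largest were Bcl2l11 (0.28 ± 0.22, interval -0.19 to 0.74), the gene of BIM, and Bbc3 (0.24 ± 0.20, -0.19 to 0.67), the gene of PUMA. At 20 weeks both were near 0, with -0.07 ± 0.22 (-0.54 to 0.39) for Bcl2l11 and 0.02 ± 0.20 (-0.40 to 0.45) for Bbc3. Over the 9 genes the intervals reached from -1.09 to 0.75 at 8 weeks and from -0.86 to 0.62 at 20 weeks. Pmaip1 was the only gene of the 10 whose genotypes did not overlap in a setting: it had 0.817 and 1.44 RPM in Tcf7-/- against 0.745 and 0.444 RPM in wild type at 20 weeks, where 12.3% of all genes tested were likewise above and 21.2% below. In a fit without the filter its log2 fold change was 0.41 ± 0.16 (0.02 to 0.80; limma unadjusted p = 0.043, adjusted p = 0.76). At 8 weeks, where 7.42% of all genes were above and 5.72% below, its values overlapped, with 0.554 and 0.622 RPM in Tcf7-/- and 0.554 and 0.807 RPM in wild type.

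The setting comparison set the 4 libraries of 20-week mice on 45% fat against the 4 of 8-week mice on 10% fat. Bcl2, Bcl2l1, Bid and Bbc3 were higher at 20 weeks, 4 of 9 tested, and none was lower, when both genotypes were averaged. Of all genes tested, 31.2% were called higher and 6.05% lower in the same contrast, so a share of this size is not particular to the family. In Tcf7-/- islets alone Bcl2 and Bid were called higher (2 of 9, with 19.8% of all genes), and in wild-type islets alone Bcl2l1, Bid and Bbc3 (3 of 9, with 16.9%). Within both genotypes 0 of 9 were called lower (2.22% and 1.63% of all genes), and the difference between the genotypes passed for none. Calls within a genotype rested on few libraries. In wild type those of Bcl2l1 and Bbc3 were lost without either 8-week library, with estimates of 0.86 and 0.83 for Bcl2l1 and 0.60 and 0.77 for Bbc3, and without the first 20-week library (0.59 and 0.67), and that of Bbc3 also without the second (0.69). The Bcl2l1 call was lost too without either Tcf7-/- library at 20 weeks, with the estimate still at 0.85. That of Bid was kept without any 1 library in both genotypes. Markers of cell types differed between settings too. Averaged over genotypes, 4 of 5 stromal, 3 of 3 lymphocyte and 2 of 11 endocrine markers tested were called lower, against 6.05% of all genes. Acinar markers were called higher for 9 of 12 in wild type (16.9% of all genes) and 0 of 12 in Tcf7-/- (19.8%). The part of cell composition in the setting differences was not tested.

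Among the survival genes, Bcl2 averaged 18.6 ± 1.48 RPM in Tcf7-/- and 22.9 ± 6.16 RPM in wild type at 20 weeks (SD, n = 2), against 10.4 ± 5.81 and 13.9 ± 1.62 RPM at 8 weeks. All 4 of its 20-week values lay above all 4 of its 8-week values, as did those of 30.4% of all genes tested. Its log2 fold change was 0.77 ± 0.20 (limma adjusted p = 0.0057), and 0.50 without the low first Tcf7-/- library at 8 weeks (adjusted p = 0.012). Within Tcf7-/- the estimate was 0.89 ± 0.28 (limma adjusted p = 0.032), which did not pass once either 20-week library was left out (0.96 and 0.81) and was 0.34 without the low 8-week library.

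Bcl2l1 had 36.8 and 47.5 RPM in Tcf7-/- and 56.9 and 39.5 RPM in wild type at 20 weeks, against 20.7 and 41.1 RPM in Tcf7-/- and 26.3 and 25.6 RPM in wild type at 8 weeks. The settings separated in wild type, as they did for 50.7% of all genes, and overlapped in Tcf7-/-, where the second 8-week library was as high as those at 20 weeks. Its log2 fold change was 0.67 ± 0.20 (limma adjusted p = 0.012). The call was lost without the second Tcf7-/- library at 20 weeks (0.58, limma adjusted p = 0.060) and without the first wild-type one (0.54, adjusted p = 0.072). Mcl1 overlapped throughout, with 41.6 and 52.9 RPM in Tcf7-/- and 48.2 and 39.3 RPM in wild type at 20 weeks beside the 8-week values given above; its log2 fold change was -0.13 ± 0.17 (-0.48 to 0.22).

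Of the effectors, Bax (ENSMUSG00000003873, chromosome 7) had 6.01 and 7.30 RPM in Tcf7-/- and 6.53 and 6.23 RPM in wild type at 20 weeks, against 7.71 and 9.59 RPM in Tcf7-/- and 8.30 and 7.81 RPM in wild type at 8 weeks. Every 20-week value was below every 8-week value, which held for 8.19% of all genes tested. The log2 fold change of -0.31 ± 0.14 did not pass (limma adjusted p = 0.094). Bak1 (ENSMUSG00000057789, chromosome 17), the second effector gene, stood at 3.17 and 5.13 RPM in Tcf7-/- and 3.67 and 3.30 RPM in wild type at 20 weeks, against 2.98 to 3.28 RPM in the 4 libraries at 8 weeks. One library, the second Tcf7-/- one at 20 weeks, was high, and the estimate was 0.20 ± 0.15 (-0.11 to 0.51).

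Bid (ENSMUSG00000004446, chromosome 6) links death receptors to mitochondria, since caspase-8 cleaves its protein into an active form. It had 4.12 and 3.70 RPM in Tcf7-/- and 4.03 and 4.47 RPM in wild type at 20 weeks, against 1.51 and 1.94 RPM in Tcf7-/- and 1.79 and 1.68 RPM in wild type at 8 weeks. The lowest 20-week value was well above the highest 8-week one, and 30.4% of all genes tested also separated in this direction. Bid had 242 to 681 reads a library at 20 weeks and 200 to 318 at 8 weeks. Its log2 fold change of 0.90 ± 0.14 was the largest of the 9 genes tested (limma adjusted p = 4.9e-05), and stayed between 0.84 and 0.95 whichever library was left out. Bid overlaps the more abundant gene Bcl2l13 on the other strand, with values given further on, so that its 20-week level is uncertain.

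Bbc3 (ENSMUSG00000002083, chromosome 7), induced by p53 and FOXO factors, had 6.71 and 5.86 RPM in Tcf7-/- and 6.20 and 6.11 RPM in wild type at 20 weeks, against 3.62 and 4.998 RPM in Tcf7-/- and 3.20 and 3.73 RPM in wild type at 8 weeks. Its 20-week values lay above all of its 8-week values, as did those of 30.4% of all genes tested. The log2 fold change was 0.57 ± 0.14 (limma adjusted p = 0.0043). Bcl2l11 (ENSMUSG00000027381, chromosome 2), the other BH3-only gene with a forkhead motif in the promoter shown above, had 15.8 and 14.5 RPM in Tcf7-/- and 17.8 and 14.2 RPM in wild type at 20 weeks. At 8 weeks it had 10.9 and 15.9 RPM in Tcf7-/- and 10.0 and 11.5 RPM in wild type, so that 1 Tcf7-/- library reached the 20-week range. The estimate was 0.36 ± 0.16 and did not pass (limma adjusted p = 0.082), but passed without that library (0.48, adjusted p = 0.005). Bad (ENSMUSG00000024959, chromosome 19), whose protein is held inactive by Akt phosphorylation, overlapped throughout, at 5.58 to 6.83 RPM over the 4 libraries at 20 weeks and 6.03 to 8.38 RPM over those at 8 weeks (-0.13 ± 0.15, interval -0.43 to 0.18).

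**Figure D2:**
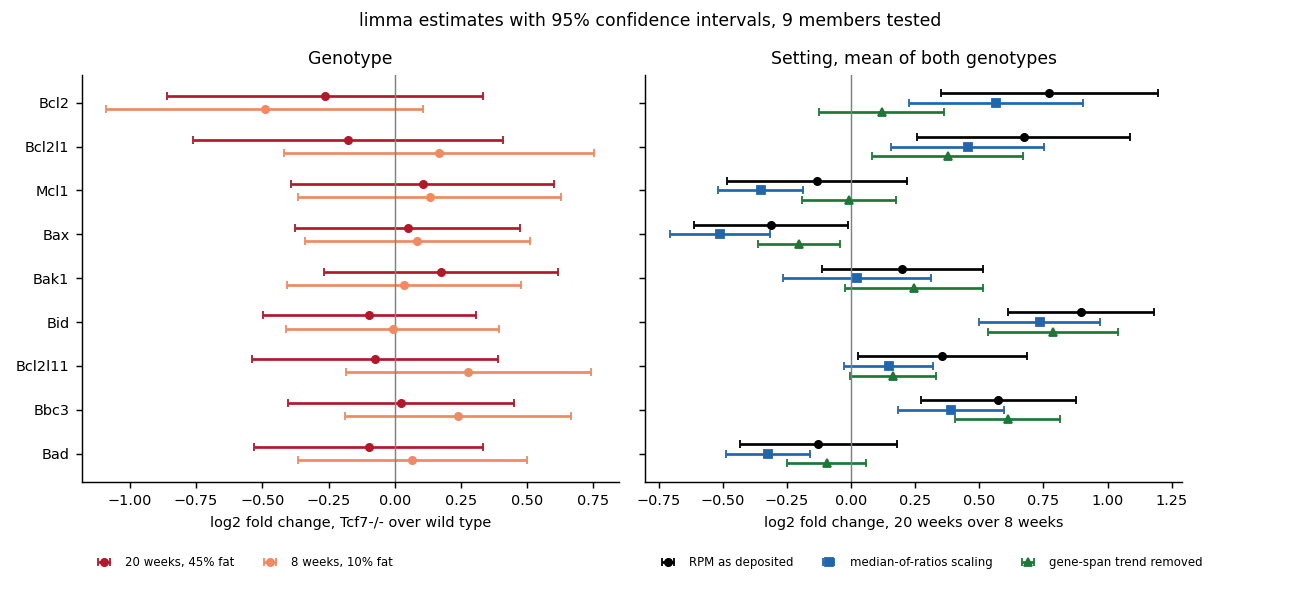
limma log2 fold changes with 95% intervals for the 9 genes tested (rows): Tcf7-/- over wild type at 20 and at 8 weeks on the left, 20 over 8 weeks on the right under 3 treatments of the values. All intervals on the left include 0; on the right Bid and Bbc3 lie above 0 in each treatment, Bax below 0 in each, and Bcl2 includes 0 once the gene-span trend is removed.

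How the values were scaled set where 0 lies in the setting comparison. The median log2 fold change of all genes tested was 0.17 on the deposited scale, and listed genes took a larger share of the reads at 20 weeks. Relative to that median Bid stood at 0.73, Bcl2 at 0.60, Bcl2l1 at 0.50, Bbc3 at 0.40, Bcl2l11 at 0.19 and Bak1 at 0.03, while Bad and Mcl1 stood at -0.30 and Bax at -0.48. With median-of-ratios scaling, which brought the median to -0.02, the same 4 genes were called higher and Bax (-0.51), Mcl1 (-0.35) and Bad (-0.32) were called lower, of 3950 higher and 3926 lower among all genes, against 4164 and 807 on the deposited scale. edgeR on the recovered reads called the same 4 higher and the same 3 lower, with 28.8% of all genes higher and 29.9% lower. Bax was negative and Bid, Bbc3, Bcl2 and Bcl2l1 were positive under each scaling tried, whereas Bak1 and Bcl2l11 turned to -0.12 and -0.01 with the listed reads as the denominator. The calls of Bcl2 and Bcl2l1 were lost with that denominator (0.42 and 0.30, limma adjusted p = 0.076 and 0.16) and with no filter on low values (limma adjusted p = 0.067 and 0.078).

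The setting difference also followed gene span, the distance from a gene's first to its last base, across all genes. Tested genes were ordered by span and cut into 4 groups of about equal size. In the group with the longest span, over 64.5 kb, the median log2 fold change was 0.56 and 61.7% were called higher. In the group with the shortest, up to 11.3 kb, it was -0.11 and 14.8% were. Bcl2, which spans 176 kb, exceeded the median of its group by 0.21, and Bcl2l1, at 51.1 kb, exceeded its own by 0.45. Bcl2l11 spans 36.5 kb and was 0.14 above its group. Among compact genes Bbc3 (9.81 kb) was 0.68 and Bak1 (9.20 kb) 0.31 above. Bax (5.20 kb) was at -0.20 from the median of its group, and Mcl1 (4.39 kb) and Bad (10.0 kb) were both at -0.02. Bid, at 24.9 kb, was 0.85 above.

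A fit with the trend of log values on span removed in each library, added after the values were seen, called Bid (0.79 ± 0.11, limma adjusted p = 0.0011), Bbc3 (0.61 ± 0.09, adjusted p = 0.0013) and Bcl2l1 (0.38 ± 0.13, adjusted p = 0.043) higher. Bax passed as lower in it (-0.20 ± 0.07, limma adjusted p = 0.043), and Bcl2 no longer passed (0.12 ± 0.11, adjusted p = 0.38). The share of all genes called in this fit is not given here, so its calls cannot be read as particular to the family. What makes the setting difference follow gene span was not tested.

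**Figure D3:**
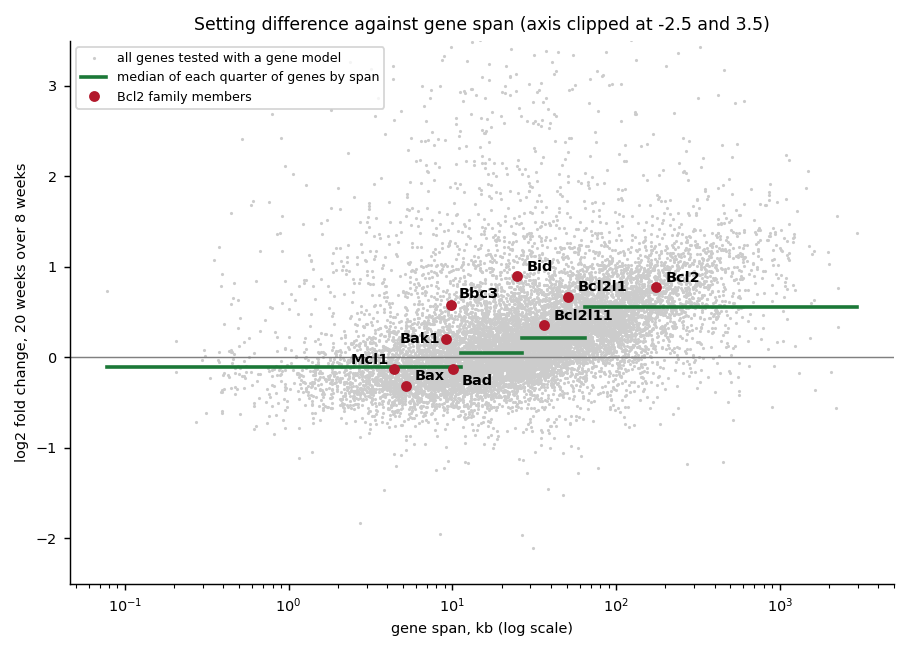
Log2 fold change of 20 over 8 weeks (vertical axis, clipped) against gene span in kb (log scale) for all genes tested that have a gene model; green lines are medians of the 4 groups by span and red points are the family. Medians climb with span, Bcl2 lies near the line of its group, and Bid and Bbc3 lie well above theirs.

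Reads of genes that overlap on opposite strands cannot be told apart unless counting kept strand, of which the sources used here say nothing. Bid shares 628 of its exon bases, 17.7% of them, with exons of Bcl2l13, a family member on the other strand. Bcl2l13 had a mean of 27.0 RPM over the 20-week libraries and 24.2 RPM over the 8-week ones. Spread evenly over the exons of Bcl2l13, those reads would put 1.87 RPM into the shared bases at 20 weeks and 1.67 RPM at 8 weeks. Bid itself averaged 4.08 RPM at 20 weeks and 1.73 RPM at 8 weeks, a difference of 2.35 RPM. Bak1 shares 437 exon bases with Ggnbp1 and Bad shares 524 with Gpr137, whose levels were 3.63 and 1.11 times those of Bak1 and Bad at 8 weeks, and Bcl2 shares 558 with D630008O14Rik, which has no value in the table used. Bax shares 192 exon bases with the same-strand gene model Gm45808.

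Across all genes that share exon bases with a listed opposite-strand gene, the share called higher climbed with the partner's 8-week level over the gene's own. Where the partner was at most as abundant as the gene at 8 weeks, 25.9% of 1284 genes were called higher at 20 weeks. The share was 41.9% of 770 genes where the partner was 1 to 10 times as abundant, 74.6% of 228 at 10 to 100 times, and 99.3% of 148 above 100 times. A gene's own 8-week level enters both this grouping and its fold change. The filter also keeps a gene under 1 RPM at 8 weeks only if at least 2 libraries at 20 weeks reach 1 RPM. The shares can therefore climb by construction, and the part of the partner in them was not tested. Bcl2l13 was 14.0 times as abundant as Bid, which puts Bid in the group with 74.6% called and a median log2 fold change of 1.02, above its own 0.90. Bcl2l1, Bcl2l11, Bbc3, Mcl1, Bax and Pmaip1 overlap no opposite-strand gene in these models.

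**Figure D4:**
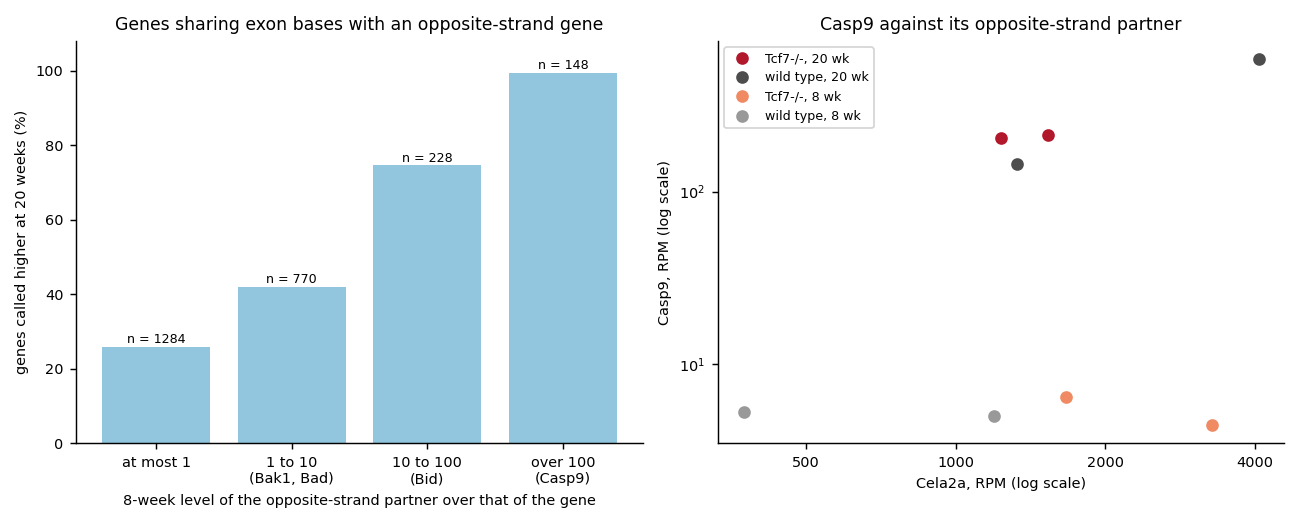
Left, percent of genes called higher at 20 weeks among genes sharing exon bases with an opposite-strand gene, by the partner's 8-week level over that of the gene (bars, from 0, with n genes above each). The gene's 8-week level enters both the grouping and the calls. Right, Casp9 against its partner Cela2a, both in RPM on log axes, 1 point a library: the 4 libraries at 20 weeks sit between 144 and 586 RPM of Casp9 and the 4 at 8 weeks between 4.44 and 6.44 RPM, at overlapping Cela2a levels.

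Ratios between these genes within a library do not depend on the scaling and are given as a description, with no test. The log2 ratio of Bax to Bcl2 was -1.55 and -1.43 in Tcf7-/- and -2.06 and -1.58 in wild type at 20 weeks, against 0.30 and -0.59 in Tcf7-/- and -0.62 and -0.95 in wild type at 8 weeks. All 20-week values were the lower ones, which already follows from the separation of Bax and of Bcl2 in opposite directions, and the settings differed by -1.19. For Bax to Bcl2l1 the difference was -1.05, with -2.62 and -2.70 in Tcf7-/- and -3.12 and -2.66 in wild type at 20 weeks, against -1.43 and -2.10 in Tcf7-/- and -1.66 and -1.71 in wild type at 8 weeks. Bax to Mcl1 differed by only -0.22. Within the survival genes Bcl2l1 gained on Mcl1, with a log2 ratio of -0.18 and -0.16 in Tcf7-/- and 0.24 and 0.01 in wild type at 20 weeks against -0.58 to -1.08 over the 8-week libraries. Bbc3 to Mcl1 differed by 0.83 in the same direction. Bax and Mcl1 are compact genes, and Bcl2 and Bcl2l1 are long ones. With the span trend removed the log2 fold changes in RPM + 1 were -0.20 for Bax, 0.12 for Bcl2 and 0.38 for Bcl2l1, against -0.31, 0.77 and 0.67 on the deposited scale. Between genotypes the ratio of Bax to Bcl2 was higher in Tcf7-/- by 0.33 at 20 weeks and 0.64 at 8 weeks. The libraries did not overlap in either setting, but the nearest values were close. They were -1.55 in Tcf7-/- against -1.58 in wild type at 20 weeks, and -0.59 against -0.62 at 8 weeks. The other Tcf7-/- library at 8 weeks, at 0.30, was the one with the low Bcl2 value. How many of all gene pairs separate in this way was not computed.

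**Figure D5:**
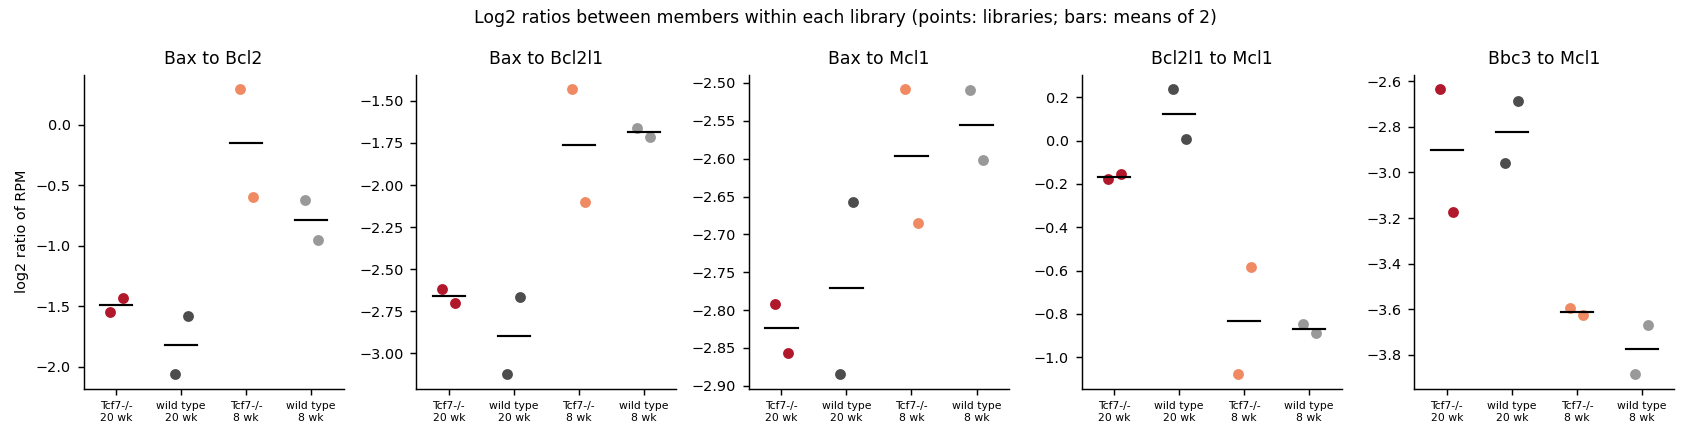
Log2 ratios of RPM between pairs of genes of the family (vertical axes, not starting at 0) in the 8 libraries by group; points are libraries and bars are means of 2. Ratios of Bax to Bcl2 and to Bcl2l1 are lower in every 20-week library than in any at 8 weeks, and ratios of Bcl2l1 and Bbc3 to Mcl1 are higher. For Bax to Bcl2 this follows from the separation of each gene.

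Other genes of the death pathway were described from 6 lists. Of 59 tested genes in these lists (other family genes, mitochondrial and apoptosome genes, inhibitors of apoptosis, death receptor genes, upstream transcription factors, and kinases with Mcl1 turnover genes), 0 were called for genotype at 20 or at 8 weeks by limma and by edgeR. In the setting comparison, 2 of 8 other family genes were higher, against 31.2% of all genes. Bcl2l12 had 3.25 and 3.54 RPM in Tcf7-/- and 3.69 and 3.27 RPM in wild type at 20 weeks, against 0.308 to 0.775 RPM at 8 weeks (log2 fold change 1.52 ± 0.14, limma adjusted p = 8.7e-08). It shares 88 exon bases with Irf3 on the other strand, which was 18.4 times as abundant at 8 weeks. Bnip3l, a mitophagy receptor, rose by 0.70 ± 0.17 (limma adjusted p = 0.0028), while the survival gene Bcl2l2 (-0.24) and the effector-like Bok (0.14) did not pass.

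Downstream, 1 of 13 mitochondrial and apoptosome genes was called, as higher, where limma called 31.2% of all genes higher and 6.05% lower. Casp9, the initiator caspase of the apoptosome, had 203 and 212 RPM in Tcf7-/- and 144 and 586 RPM in wild type at 20 weeks, against 4.44 and 6.44 RPM in Tcf7-/- and 5.26 and 4.99 RPM in wild type at 8 weeks, a log2 fold change of 5.30 ± 0.28 (limma adjusted p = 2.7e-11). It shares 94 exon bases with Cela2a, an acinar elastase gene on the other strand that was 308 times as abundant at 8 weeks. Cela2a had 1233 and 1532 RPM in Tcf7-/- and 1329 and 4068 RPM in wild type at 20 weeks, against 3275 and 1671 RPM in Tcf7-/- and 374 and 1192 RPM in wild type at 8 weeks. The library with the most Cela2a at 20 weeks also had the most Casp9, whereas at 8 weeks similar or higher Cela2a stood beside under 7 RPM of Casp9, as the plot of both genes shows. Its values at 20 weeks are therefore uncertain as a level of Casp9. Of the inhibitors of apoptosis 2 of 5 were higher, against 31.2% of all genes. These were Naip5 (0.49 ± 0.14) and Birc3 (0.47 ± 0.18), and neither passed once the span trend was removed. Birc3 rested on single libraries: it had 18.6 and 10.9 RPM in Tcf7-/- and 10.7 and 8.79 RPM in wild type at 20 weeks, against 6.21 to 9.62 RPM at 8 weeks. Its estimate was 0.29 without the high Tcf7-/- library (limma adjusted p = 0.27), and the call was lost without 6 of the 8 libraries in turn. That of Naip5 was lost without the first wild-type library at 20 weeks (0.37). Of 10 death receptor genes 0 were called by limma, with 1 at an unadjusted p below 0.05 (Tnfrsf10b, 0.39 ± 0.16), and edgeR called 4, all lower (Fadd, Tnfrsf21, Cflar and Traf2), as it did 29.9% of all genes.

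Upstream, 4 of 11 transcription factors were higher and 1 was lower, against 31.2% and 6.05% of all genes. Foxo1 had 138 and 139 RPM in Tcf7-/- and 162 and 121 RPM in wild type at 20 weeks, against 47.2 and 84.8 RPM in Tcf7-/- and 66.8 and 81.4 RPM in wild type at 8 weeks. Its 20-week values lay above all of its 8-week values, as did those of 30.4% of all genes tested. The log2 fold change was 1.02 ± 0.20 (limma adjusted p = 5.7e-04), and the call held with the span trend removed (0.58, limma adjusted p = 0.0012). Foxo3 rose by 0.78 ± 0.22 (limma adjusted p = 0.0081), but passed neither with the span trend removed (0.32, adjusted p = 0.10) nor without the first wild-type library at 20 weeks (0.57, adjusted p = 0.066). Ddit3, the gene of the stress factor CHOP, which is known to act on Bcl2l11 and Bcl2, rose by 0.88 ± 0.21 (limma adjusted p = 0.0027) and was at 0.99 with the span trend removed. It shares 68 exon bases with Mars on the other strand. E2f1 was lower (-0.53 ± 0.16, limma adjusted p = 0.018), but the call was lost without 3 of the 8 libraries in turn, at -0.36 without the first Tcf7-/- one at 20 weeks. Summed immediate early and heat shock genes stood at 1482 and 1071 RPM in Tcf7-/- and 1470 and 877 RPM in wild type at 20 weeks. At 8 weeks they stood at 752 and 1065 RPM in Tcf7-/- and 791 and 792 RPM in wild type, so that the settings overlapped. Of these genes 4 of 8 were called higher, against 31.2% of all genes, and their part in the values above was not tested.

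Among kinases and Mcl1 turnover genes 7 of 12 were higher and 1 lower, against 31.2% and 6.05% of all genes. With the span trend removed 5 were higher and 1 lower, and the share of all genes in that fit is not given here. Bag3, a cochaperone known to stabilise Mcl1 protein, had 23.3 and 24.9 RPM in Tcf7-/- and 19.6 and 14.6 RPM in wild type at 20 weeks against 6.55 to 8.35 RPM at 8 weeks (1.27 ± 0.15, limma adjusted p = 2.3e-06), and 1.17 with the span trend removed. Gsk3b, a kinase that marks Mcl1 protein for degradation, rose by 0.92 ± 0.19 (limma adjusted p = 0.0010; 0.30 with the span trend removed). Fbxw7, part of a ubiquitin ligase of Mcl1, was at 0.80 ± 0.18 and Map3k5 at 0.66 ± 0.19, and neither passed with the span trend removed (0.16 and -0.04). The Map3k5 call was also lost without the first wild-type library of either setting (0.52 at 20 weeks and 0.59 at 8 weeks). Akt1, the kinase upstream of Bad, was lower at -0.45 ± 0.15 (limma adjusted p = 0.029), a call lost without 5 of the 8 libraries in turn (-0.36 to -0.48). Mcl1 RNA itself showed no call on the deposited scale.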

How the data were processed

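Per the labels' protocols, RiboZero removed ribosomal RNA from Trizol-extracted total RNA before TruSeq library construction. CASAVA 1.8, FastQC, TopHat 1.4.1 and the build mm9 are named in the submitters' processing notes; these notes, as used here, do not name the counting tool, its annotation or its use of strand. The authors deposited RPM values of 22632 genes, in which reads are scaled to the total of their library. All values (100%) were whole multiples of 1 read within 0.01 of a read, which gave the library totals. A read was worth 0.00523 to 0.0170 RPM.

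limma 3.58.1 in R 4.3.3 fitted log2(RPM + 1) of 13347 genes (at least 1 RPM in at least 2 libraries) with the 4 group means, a mean-variance trend and Benjamini-Hochberg adjustment over all genes, threshold 0.05. This understates changes of low genes. edgeR 4.0.16 on the recovered reads was an alternative: it called 3842 genes higher and 3988 lower for the setting (limma: 4164 and 807), and for genotype 0 at 20 weeks and 24 at 8 weeks (limma: 6 and 28). Further alternatives were median-of-ratios scaling, the listed reads as the denominator, no filter, a filter at 5 RPM, 0.1 as the pseudocount, no trend, the compared libraries only, and each library left out. No sample column was left unused.

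Spans, exons and overlaps are from GENCODE M21 on GRCm38, not the authors' build, and promoters from RefSeq. All 10 genes are named with their values; of each pathway list up to 4 called genes with the largest changes, or the 2 smallest p-values. Genes and lists were chosen with earlier results of these data known. Bcl2l2, Bok and Akt1 were named after their values were seen. The promoter of Pmaip1 is not used here.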

Additional observations from a re-analysis of the deposited data

Results flagged for a closer look

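Casp6, which encodes an executioner caspase, was flagged because its genotype groups stood apart in opposite directions in the 2 settings. At 20 weeks it had 2.79 and 2.91 RPM in Tcf7-/- against 3.22 and 3.23 RPM in wild type, and at 8 weeks 2.39 and 2.84 RPM in Tcf7-/- against 2.16 and 2.37 RPM in wild type. Both pairs of groups stood apart without overlap, as did those of many genes: 12.3% of all genes tested were above and 21.2% below wild type at 20 weeks, and 7.42% above and 5.72% below at 8 weeks. The interaction was -0.28 ± 0.27 on the log2 scale and did not pass (limma adjusted p = 1), so that the difference is not shown by a test.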

How the results depend on the processing

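No fold change of a family gene that was called reversed under any alternative. Over all contrasts and alternatives 893 of the fold changes kept their direction and their side of the threshold. Another 69 changed direction with no call in either fit, 41 gained a call and 27 lost one. Of all genes tested, limma called 31.2% higher and 6.05% lower for the setting averaged over genotypes, and edgeR called 28.8% and 29.9%. Within Tcf7-/- limma called 19.8% and 2.22%, and within wild type 16.9% and 1.63%. Shares for the other alternatives are not set beside the counts below, which cannot be read as particular to the family. For the setting averaged over genotypes, called genes of the family numbered 4 higher and 0 lower. They were 2 higher with the listed reads as the denominator and 2 without a filter, 3 with a minimum of 5 RPM and 3 with the span trend removed, and 3 were lower with median-of-ratios scaling, with the listed denominator and with edgeR, and 1 with the span trend removed (0 to 1 when a library was left out, the 1 being Bax at -0.38 without the first Tcf7-/- library at 8 weeks). In Tcf7-/- alone, 2 were higher, which became 1 with the listed denominator, with no filter and with a minimum of 5 RPM, and 1 to 4 when a library was left out; 3 were lower with median-of-ratios scaling, the listed denominator and edgeR. In wild type alone, 3 were higher, which became 1 with the listed denominator and with no filter, 2 with a minimum of 5 RPM and with the span trend removed, 4 with median-of-ratios scaling and edgeR, 5 with the compared libraries only, and 1 to 5 when a library was left out; 2 were lower with median-of-ratios scaling and edgeR, and 3 with the listed denominator. For genotype at 8 weeks and on average, 0 calls became 0 to 1 when a library was left out, the 1 being Bcl2 without the second Tcf7-/- library. With a minimum of 5 RPM only 7 genes of the family were tested, and Bid was not among them. The other genes called for the setting kept their calls with that filter, within each genotype and on average. Where a group kept 1 library, it was taken to vary like the other groups. The cause was not tested; scaling moves the median of all genes by construction. No paired analysis was possible because the labels carry no replicate numbers shared between groups. With 2 libraries a group, the intervals printed with each genotype estimate limit what could be seen.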
